A study of Mus musculus with 6 samples.

Results

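Neurocan, brevican, aggrecan and versican (Ncan, Bcan, Acan, Vcan), the link proteins Hapln1, Hapln2 and Hapln4, the tenascins Tnc and Tnr, and the receptor phosphatase Ptprz1 build the hyaluronan matrix of the central nervous system and its perineuronal nets. These 10 genes were taken by symbol from the 36629 genes of the deposited files, and all 10 had a value in every library. They were compared between mouse spinal cord after a crush (SCI, spinal cord injury, 3 libraries) and sham-operated cord (3 libraries). All animals were C57/BL6 mice of 3 to 5 weeks and 18 to 20 g, with no other allele named in the labels. In both groups the vertebral roof was opened at T9 to T10, and in the SCI group the cord was also closed in a vascular clip of 60 g force for 5 s. Tissue from T8 to T12 was taken on day 3, so that each SCI library holds the lesion together with the cord around it, and the sham libraries carry the surgery without the crush. Whether a library is 1 animal or a pool is not given in the labels, so the p-values measure the spread between these samples only. Haemoglobin genes held 0.656%, 6.16% and 0.211% of the FPKM in SCI libraries 1 to 3, against 0.109% to 0.126% in sham libraries, so SCI 2 stands apart by its blood. SCI 3 stands apart by sensory ganglion transcripts, with Avil, an actin-binding protein of sensory neurons, at 0.42, 0.26 and 17.30 FPKM in SCI libraries, against 0.50, 0.21 and 0.15 in sham libraries. Leaving out either library moved no call among the 10 genes.

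Perineuronal nets are lattices around the cell body and proximal dendrites of certain neurons, in the cord mainly motor neurons and fast-spiking interneurons. Hyaluronan chains made at the cell surface are their backbone, lecticans bind hyaluronan at one end, link proteins lock that binding, and tenascin-R ties lecticans together at the other end. The chondroitin sulphate chains of lecticans are known for limiting axon growth in the scar that follows a cord injury. Bulk RNA-seq reads the transcripts of this matrix and not the matrix itself.

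Values are the authors' FPKM, which count fragments per length of the transcript and per size of the library. Levels of different genes can thus be set side by side, as far as the transcript models used are right. Changes are SCI minus sham on log2(FPKM + 1), from limma across the 17435 genes that reached 1 FPKM in 3 or more of the 6 libraries. All 10 genes passed that filter, and p-values were adjusted by the Benjamini-Hochberg method over all genes tested. Of the 10, 4 were higher in SCI (Ncan, Vcan, Tnc, Ptprz1), 4 were lower (Bcan, Acan, Hapln1, Hapln4) and 2 did not pass an adjusted p of 0.05 (Hapln2, Tnr). Across all genes tested, 26.7% were higher and 30.8% lower, so that 57.5% passed in either direction. The SCI and sham libraries did not overlap in 8 of the 10 genes, against 67.6% of all genes tested. The median change was −0.08 over the 10 genes and −0.076 over all genes. Since most genes changed after this injury, 8 of 10 is no result about the set, and what follows is about which of its genes went up and which went down. In bulk tissue, fewer cells of a type and less RNA per cell cannot be told apart in any of these values.

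**Figure D1:**
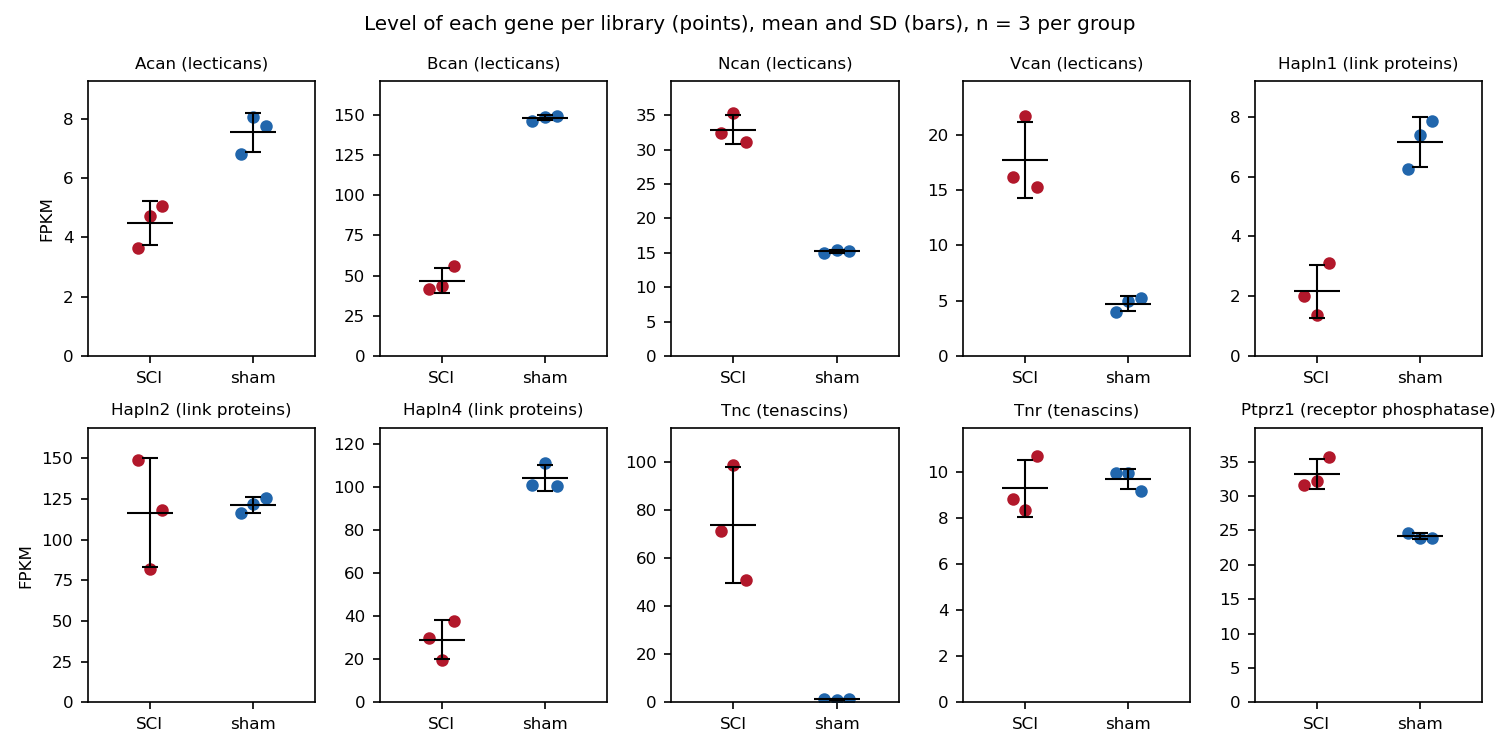
FPKM of each of the 10 genes (vertical axes, each from 0, each with its own scale) in the 3 SCI and 3 sham libraries (points), with the mean and SD of each group. The groups overlap in Hapln2 and Tnr and are apart in the other 8 genes, and Tnc lies between 50.84 and 98.80 FPKM in SCI against 1.19 to 1.47 in sham libraries.

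**Figure D2:**
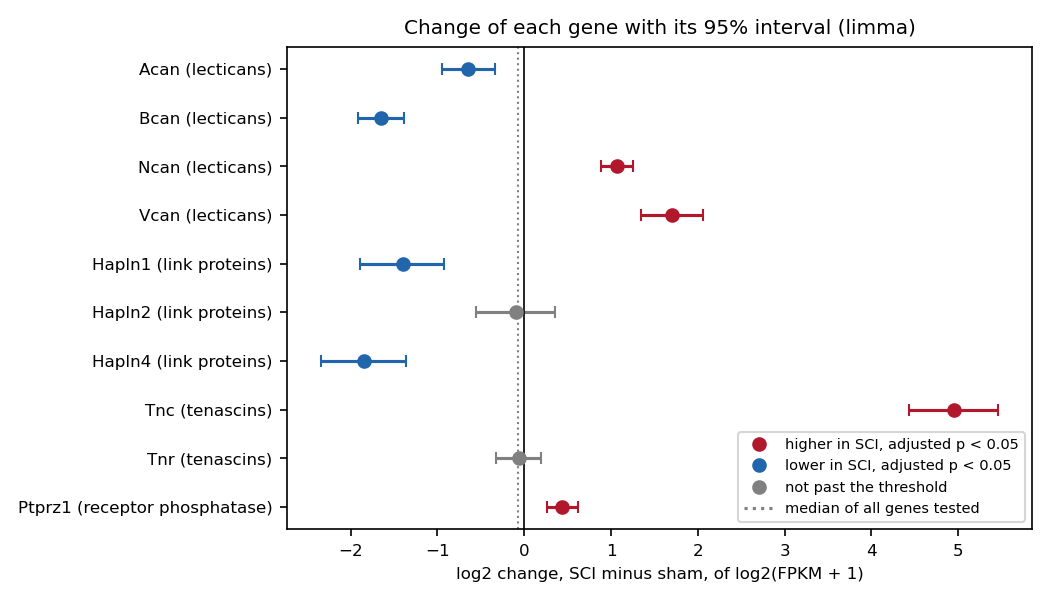
Change of each gene, SCI minus sham on log2(FPKM + 1) (horizontal axis), with limma's 95% interval. Tnc stands at 4.95, Vcan, Ncan and Ptprz1 lie to the right of 0, Acan, Bcan, Hapln1 and Hapln4 to the left, and the intervals of Hapln2 and Tnr cross 0.

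The 4 lecticans split evenly. Ncan, the lectican of astrocytes and growing neurons, and Vcan, made by glial precursors and connective tissue cells, rose after SCI. Bcan, the main lectican of the adult central nervous system, and Acan, the defining core protein of perineuronal nets, fell. The stretches of sequence just before the starts of the lectican genes that changed by more than 1 log2 unit are shown first, since these genes moved apart. They are 250 bases each, on the strand of the gene, from RefSeq on GRCm38.p6, with TATA boxes, GC boxes and CCAAT boxes in capitals.
Ncan: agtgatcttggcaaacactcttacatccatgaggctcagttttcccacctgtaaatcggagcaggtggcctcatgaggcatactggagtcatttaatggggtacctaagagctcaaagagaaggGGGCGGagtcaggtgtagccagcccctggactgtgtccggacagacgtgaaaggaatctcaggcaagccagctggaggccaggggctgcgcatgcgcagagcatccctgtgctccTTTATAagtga
Vcan: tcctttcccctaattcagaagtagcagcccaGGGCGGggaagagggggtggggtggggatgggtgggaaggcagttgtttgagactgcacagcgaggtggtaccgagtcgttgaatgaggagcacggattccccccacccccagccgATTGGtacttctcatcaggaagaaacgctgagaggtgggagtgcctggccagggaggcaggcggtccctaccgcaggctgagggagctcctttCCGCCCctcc
Bcan: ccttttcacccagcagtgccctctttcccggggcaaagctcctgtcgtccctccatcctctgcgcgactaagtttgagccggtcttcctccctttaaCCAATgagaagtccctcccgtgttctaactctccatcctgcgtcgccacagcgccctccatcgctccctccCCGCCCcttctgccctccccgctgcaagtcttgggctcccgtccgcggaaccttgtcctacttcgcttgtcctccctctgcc

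They lie at chr8:70120845-70121094, chr13:89742513-89742762 and chr3:88000357-88000606, all on the minus strand. Motifs were searched on both strands by their letters, and distances run from the start of the transcript back to the first base of the match. The window of Ncan held 1 TATA box (TATAAA, on the opposite strand) 11 bases and 1 GC box (GGGCGG) 126 bases before the start. The deposited files start Ncan at 70120873, inside its window, so the TATAAA match lies within the gene as annotated there. The window of Vcan held GC boxes 219 and 10 bases and a CCAAT box 103 bases before the start, and that of Bcan a GC box at 82 and a CCAAT box at 153 bases. Among 32851 RefSeq promoter windows of the same length, 12.4% held TATAAA, 32.7% GGGCGG and 33.8% CCAAT. The windows of Vcan and Bcan, which moved in opposite directions, had a GC content of 62.4% and 62%, against 54.4% for Ncan and a median of 52.4% over all windows. A match is a description of the letters and not a site of binding.

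Ncan stood at 32.43, 35.25 and 31.06 FPKM in SCI libraries 1 to 3, against 14.96, 15.34 and 15.26 in sham libraries 1 to 3. Every SCI library was above every sham library, and the sham libraries were nearly alike. The rise was 2.17-fold (log2 change 1.07, SE 0.08, limma adjusted p = 6.5e-05).

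Vcan stood at 16.21, 21.67 and 15.27 FPKM in SCI libraries, against 3.98, 4.96 and 5.27 in sham libraries. Its lowest SCI library was still well above its highest sham library. The rise was 3.74-fold (log2 change 1.70, SE 0.15, limma adjusted p = 1.6e-04), the largest among the lecticans. Versican exists as splice forms with or without long chondroitin sulphate regions, and the values are totals over the gene that do not resolve them.

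Bcan stood at 41.42, 43.51 and 55.86 FPKM in SCI libraries, against 146.42, 148.71 and 149.51 in sham libraries. The sham libraries spanned only a few FPKM and the SCI libraries were all far below them. Its level in SCI was 0.317 of that in sham libraries (log2 change −1.65, SE 0.12, limma adjusted p = 5.4e-05), which ranked 70th among the falls of all 17435 genes. Both of the gene's known products, the secreted and the membrane-anchored form, are included in this total.

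Acan stood at 3.66, 4.74 and 5.06 FPKM in SCI libraries, against 6.82, 8.06 and 7.77 in sham libraries. The groups did not overlap, though Acan was the lowest of the lecticans in SCI. The fall was 1.68-fold (log2 change −0.65, SE 0.13, limma adjusted p = 0.0047). Acan is also the main proteoglycan of cartilage, which lies close to the opened vertebrae. Of 13 cartilage and bone markers 6 could be tested, of which 1 was higher and 4 were lower, and their summed level was 27.4 to 39.2 FPKM in SCI and 42.8 to 46.8 FPKM in sham libraries. The largest of that list were Col11a2 (mean 8.84 FPKM in SCI, 18.4 in sham) and Col9a3 (10.1 in both). No marker of the list was at 0 in all libraries, but some were near it. Bglap averaged 0.06 FPKM in SCI and 0 in sham libraries, and Matn1 0.0767 in SCI and 0.413 in sham libraries. The part of cartilage in the fall of Acan was not tested.

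The makeup of the lectican transcripts shifted along with their total. The summed level of the 4 genes was 93.7, 105 and 107 FPKM in SCI libraries, against 172, 177 and 178 in sham libraries. Bcan held 45.9% ± 5.55 of it in SCI and 84.4% ± 0.582 in sham libraries (SD, n = 3 each). Ncan held 32.4% ± 2.99 in SCI against 8.64% ± 0.0556 in sham libraries, and Vcan held 17.4% ± 3.18 in SCI against 2.69% ± 0.34 in sham libraries. A share within a library does not depend on how that library was scaled, and these 3 shares did not overlap between the groups. An exact two-sided permutation test over the libraries gave p = 0.1 for each, the smallest value that 3 against 3 can give. The share of Acan was 4.38% ± 0.422 in SCI and 4.29% ± 0.303 in sham libraries, with overlapping libraries (exact permutation p = 0.8), and Acan stood at 0.594 of its sham level where the 4 genes in sum stood at 0.581.

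**Figure D3:**
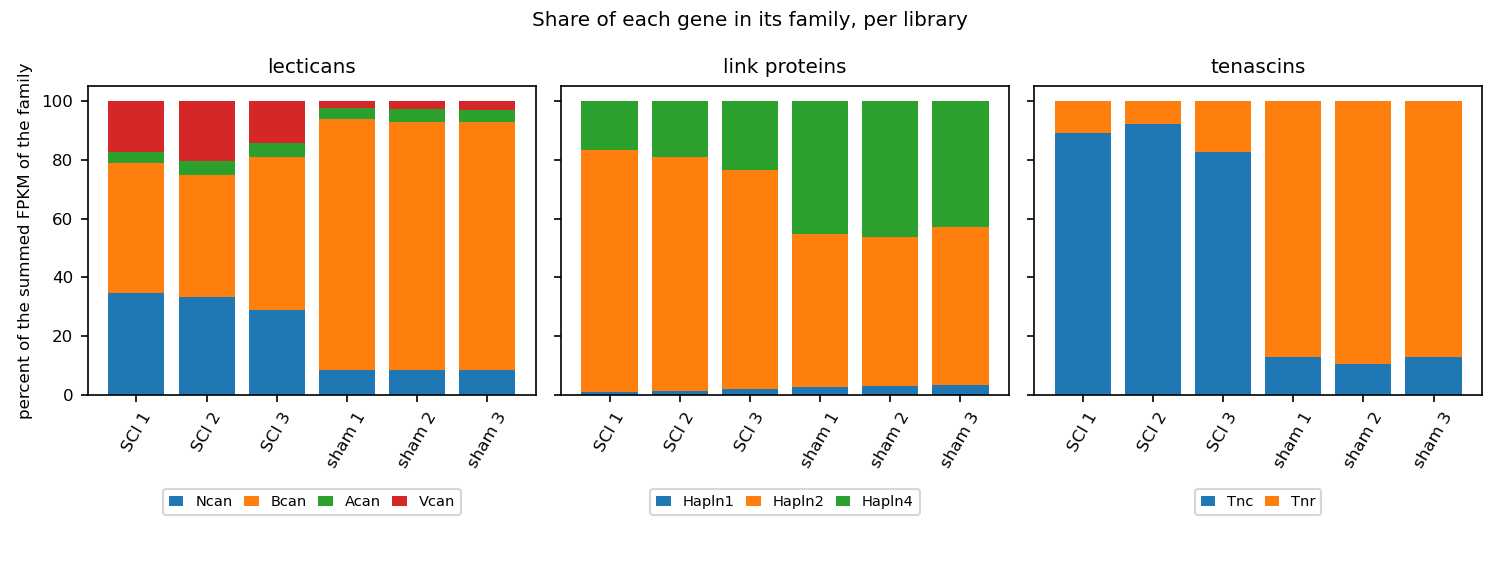
Percent of the summed FPKM of the lecticans, of the 3 link proteins and of the 2 tenascins (vertical axis) taken by each gene, with 1 stacked bar per library. Bcan takes 41.4% to 52.1% of the lecticans in SCI and 84% to 85% in sham libraries, and Tnc takes 82.6% to 92.2% of the tenascin pair in SCI and 10.7% to 12.9% in sham libraries.

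Of the link proteins, the pair known from perineuronal nets fell and the one known from nodes of Ranvier did not pass the test. Hapln4, which in the mouse holds brevican in the nets of brainstem and cerebellum, stood at 30.00, 19.69 and 37.73 FPKM in SCI libraries, against 100.95, 111.38 and 100.76 in sham libraries. All SCI libraries were far below all sham libraries, and SCI 2 was the lowest. The fall was 3.58-fold (log2 change −1.85, SE 0.21, limma adjusted p = 4.1e-04), the largest among the 10 genes and 35th among all genes tested.

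Hapln1, the cartilage link protein, without which nets form poorly in mice, stood at 2.01, 1.36 and 3.11 FPKM in SCI libraries, against 6.25, 7.41 and 7.88 in sham libraries. SCI 2 was again the lowest and no SCI library reached the sham range. The fall was 3.32-fold (log2 change −1.40, SE 0.21, limma adjusted p = 0.0012).

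Hapln2, which in the mouse is made by oligodendrocytes and sits with a versican form at nodes of Ranvier, stood at 148.84, 82.24 and 118.45 FPKM in SCI libraries, against 116.27, 122.05 and 125.85 in sham libraries. The SCI libraries lay above, below and within the sham range, so that the spread among SCI libraries exceeded the difference between groups. The change was −0.10 (95% interval −0.56 to 0.36, limma adjusted p = 0.69), and without SCI 2 it was 0.13. Of 8 mature oligodendrocyte markers, 1 was higher and 5 were lower (0 and 4 without SCI 3), and their summed level was 4566 to 5865 FPKM in SCI against 7344 to 7990 FPKM in sham libraries. SCI 2 was the lowest library for that sum as for Hapln2. Hapln2 held 78.8% ± 4.04 of the link protein transcripts in SCI and 52.1% ± 1.5 in sham libraries, and Hapln4 held 19.8% ± 3.6 in SCI against 44.8% ± 1.67 in sham libraries (SD, n = 3 each, exact permutation p = 0.1 for both). The summed level of the 3 link proteins was 181, 103 and 159 FPKM in SCI libraries, against 223, 241 and 234 in sham libraries.

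The tenascins changed places. Tnc, the tenascin of development and of wounds, was the lowest of the 10 genes in sham cord and the second highest in SCI cord. The sequence before its upstream RefSeq start is shown because no other gene of the set changed as much. Its TATAAA and GGGCGG matches are in capitals.
Tnc: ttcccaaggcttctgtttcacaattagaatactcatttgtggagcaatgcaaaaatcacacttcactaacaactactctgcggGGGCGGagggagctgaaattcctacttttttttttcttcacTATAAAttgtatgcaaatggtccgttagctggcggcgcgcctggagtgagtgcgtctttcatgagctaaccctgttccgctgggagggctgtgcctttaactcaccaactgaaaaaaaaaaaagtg

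It lies at chr4:64047016-64047265 on the minus strand of GRCm38.p6, with the GGGCGG match 167 bases and the TATAAA match 126 bases before the start. RefSeq lists another start 79 bases further downstream. The window of that start, not printed here, holds the letters TATATAA near its end, which a search for TATAAA does not find. The gene's coordinates in the deposited files begin 26290 bases inside those of GENCODE M21, whose start for the gene is next to the printed window. The GC content of the printed window was 44.8%, the lowest among the windows printed here. No AP-1 motif (TGANTCA, in 6.75% of all windows), STAT motif (TTCNNNGAA, in 7.02%) or E box (CACGTG, in 6.02%) was found in the windows of the 9 genes that had one in the RefSeq table, which says only that these letters are not in these 250 bases. Hapln4 was not among the 9.

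Tnc stood at 71.24, 98.80 and 50.84 FPKM in SCI libraries, against 1.47, 1.19 and 1.36 in sham libraries. SCI 2 was 1.94 times SCI 3, which is wide for a group yet small beside the distance to the sham libraries. The rise was 54.9-fold in FPKM (log2 change 4.95, SE 0.22, limma adjusted p = 1.2e-05), the 13th largest rise of all genes tested. By mean level Tnc ranked 1326th of 17435 genes in SCI and 15802nd in sham libraries. Tnr, the tenascin that oligodendrocytes and some interneurons add to nets and nodes, stood at 8.84, 8.35 and 10.69 FPKM in SCI libraries, against 9.97, 9.93 and 9.17 in sham libraries. Its groups overlapped, with a change of −0.06 (95% interval −0.32 to 0.19, limma adjusted p = 0.66), which was 0.01 without SCI 2 and 0.02 under median-ratio scaling. Of the summed FPKM of both genes, Tnc held 89%, 92.2% and 82.6% in SCI libraries, against 12.8%, 10.7% and 12.9% in sham libraries (exact permutation p = 0.1). The sum was 80.1, 107 and 61.5 FPKM in SCI libraries, against 11.4, 11.1 and 10.5 in sham libraries.

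Ptprz1 encodes a receptor tyrosine phosphatase of astrocytes and glial precursors whose secreted splice form, phosphacan, binds tenascins and contactin. It stood at 31.57, 32.21 and 35.66 FPKM in SCI libraries, against 24.68, 23.95 and 23.86 in sham libraries. The groups were apart although the rise was the smallest among the genes that passed, at 1.37-fold (log2 change 0.44, SE 0.08, limma adjusted p = 0.0026). Receptor and phosphacan transcripts are counted together in this total.

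In SCI cord the order of levels ran Hapln2, Tnc, Bcan, Ptprz1, Ncan, Hapln4, Vcan, Tnr, Acan, Hapln1. The libraries of neighbours in this order overlapped for Hapln2 and Tnc, Tnc and Bcan, Ptprz1 and Ncan, Ncan and Hapln4, and Hapln4 and Vcan, so their order within SCI is not beyond the spread. In sham cord the order was Bcan, Hapln2, Hapln4, Ptprz1, Ncan, Tnr, Acan, Hapln1, Vcan, Tnc, and only Acan and Hapln1 overlapped.

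In mammals each lectican gene lies beside a link protein gene, and none of the 4 pairs moved together. Around Ncan and around Vcan the neighbours went opposite ways, and beside Bcan and Acan the link protein did not pass. Coordinates are those of the files and, except for Tnc, match GENCODE M21 on GRCm38. Ncan (ENSMUSG00000002341, chromosome 8, 70093085 to 70120873) is on the minus strand and Hapln4 (ENSMUSG00000007594, 70083457 to 70090862) on the plus strand, tail to tail with 2222 bases between them. The ratio of Ncan to Hapln4 in FPKM was 1.08, 1.79 and 0.823 in SCI libraries, against 0.148, 0.138 and 0.151 in sham libraries. On the log2 scale with 1 FPKM added to each gene, the ratio was 2.92 higher in SCI.

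Vcan (ENSMUSG00000021614, chromosome 13, 89655312 to 89742509, minus strand) faces Hapln1 (ENSMUSG00000021613, 89539796 to 89611652, plus strand) tail to tail across 43659 bases. The ratio of Vcan to Hapln1 was 8.06, 15.9 and 4.91 in SCI libraries, against 0.637, 0.669 and 0.669 in sham libraries, a log2 difference of 3.10. Here too one neighbour rose while the other fell.

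Bcan (ENSMUSG00000004892, chromosome 3, 87987531 to 88000230) and Hapln2 (ENSMUSG00000004894, 88021750 to 88027583) lie on the minus strand, 21519 bases apart. The ratio of Bcan to Hapln2 was 0.278, 0.529 and 0.472 in SCI libraries, against 1.26, 1.22 and 1.19 in sham libraries, a log2 difference of −1.55. Acan (ENSMUSG00000030607, chromosome 7, 79053483 to 79115099, plus strand) ends 2 bases from Hapln3 (79115102 to 79131018, minus strand), a link protein gene outside the set that stood at 1.1 ± 0.13 FPKM in SCI and 0.893 ± 0.337 FPKM in sham libraries (log2 change 0.16, limma adjusted p = 0.47). The ratio of Acan to Hapln3 differed by −0.81 on the log2 scale. Each of the 4 ratios was apart between the groups, with exact two-sided permutation p = 0.1, the smallest possible. The files list no gene between the neighbours of any pair. Where genes end this close, reads past the end of one could be counted to the other unless strand was used, and whether it was used is not given in the sources.

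**Figure D4:**
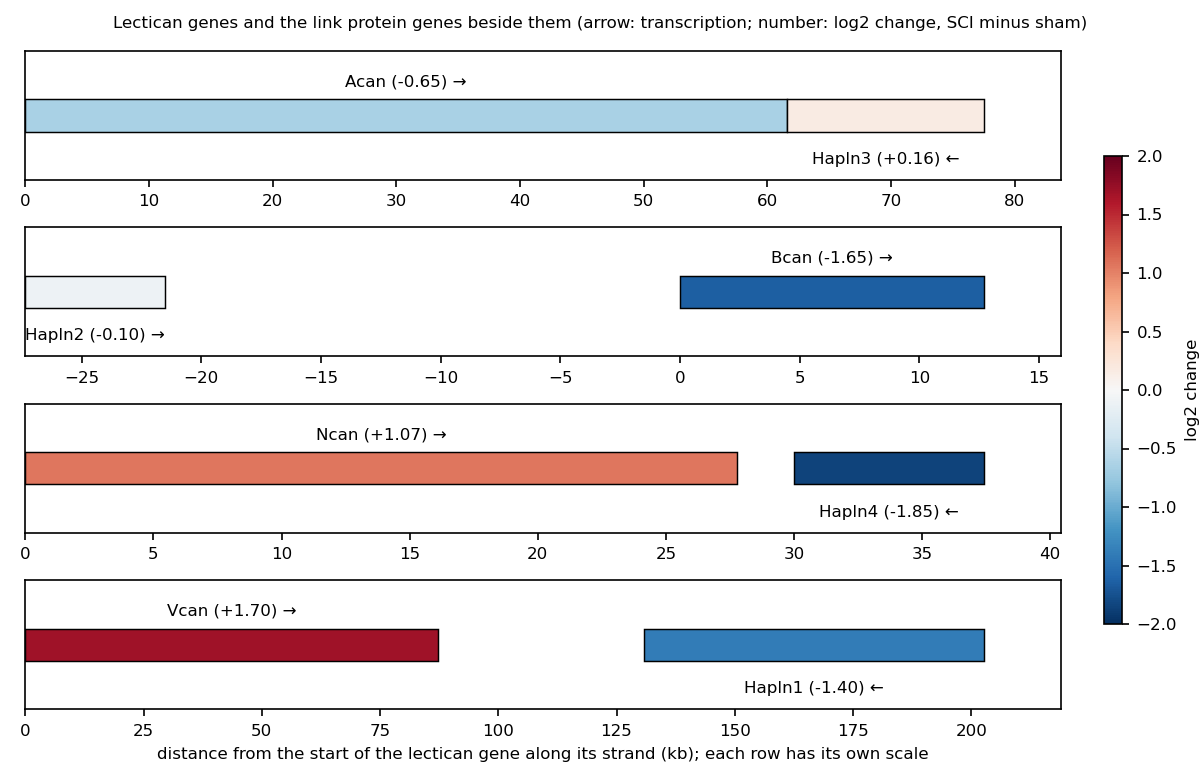
The 4 lectican genes and the link protein genes beside them, drawn to scale along the strand of the lectican gene (horizontal axes in kb from the start of the lectican gene, each row with its own scale), coloured by the log2 change, SCI minus sham. Ncan at 1.07 lies beside Hapln4 at −1.85, and Vcan at 1.70 beside Hapln1 at −1.40.

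The remaining genes lie apart from these pairs. Tnc (ENSMUSG00000028364, chromosome 4, 63959785 to 64020725) is read from the minus strand. Tnr (ENSMUSG00000015829, chromosome 1, 159523769 to 159931729) and Ptprz1 (ENSMUSG00000068748, chromosome 6, 22875502 to 23052916) are read from the plus strand. Vcan, Hapln1, Tnr and Tnc overlap small genes of the annotation (Gm16318 and Gm4117, Gm8546, Gm10530, and 8030451A03Rik), all with a mean under 1 FPKM.

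The genes around the set were counted by list, beside 26.7% higher and 30.8% lower over all genes tested. Of 7 hyaluronan synthases and hyaluronidases tested, 5 were higher and 1 lower (4 and 1 without SCI 2), with a median change of 0.89. Has2, a hyaluronan synthase, averaged 8.04 ± 5.84 FPKM in SCI and 0.407 ± 0.0577 FPKM in sham libraries (SD, n = 3 each, log2 change 2.49, limma adjusted p = 0.002). Hyal2, a hyaluronidase of the cell surface, averaged 11.4 ± 1.64 FPKM in SCI and 5.13 ± 0.464 FPKM in sham libraries (log2 change 1.01, adjusted p = 6.1e-04). Has3, another synthase, was the one that fell (log2 change −0.80, adjusted p = 0.0033).

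Of 10 genes tested for proteases that cleave lecticans, a list that also holds the inhibitor Timp3, 7 were higher and 1 was lower (8 and 1 without SCI 3), with a median change of 1.14. Adamts1, which cuts aggrecan and versican, averaged 94.3 ± 16.9 FPKM in SCI and 12.3 ± 0.647 FPKM in sham libraries (log2 change 2.82, limma adjusted p = 1.3e-05). Mmp14, a membrane-bound metalloproteinase, averaged 32.9 ± 6.77 FPKM in SCI and 5.89 ± 0.146 FPKM in sham libraries (log2 change 2.28, adjusted p = 3.1e-05). Timp3, which inhibits aggrecan-cutting ADAMTS proteases, averaged 87.6 ± 19.3 FPKM in SCI and 52.3 ± 5.29 FPKM in sham libraries (log2 change 0.72, adjusted p = 0.0083). Adamts20 was lower (log2 change −0.79, adjusted p = 0.019), a call that ended without sham 3 (−0.62) or with no filter (adjusted p = 0.053). Adamts4 (0.13) and Mmp9 (0.72) did not pass, though Mmp9 did without SCI 3 (1.13).

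Of 16 cell surface partners, 6 were higher and 5 lower, with a median change of 0.18. Cd44, the main hyaluronan receptor, averaged 66.4 ± 7.64 FPKM in SCI and 5.02 ± 1.1 FPKM in sham libraries (log2 change 3.50, limma adjusted p = 1.2e-05). Lyve1, a hyaluronan receptor of lymphatic vessels and resident macrophages, had a change of 1.88 (adjusted p = 4.5e-04). Itgav, an integrin chain that pairs into tenascin-C receptors, rose by 1.34 on the log2 scale, whereas Itga9, another one, stood at 4.88 ± 1.3 FPKM in SCI and 3.55 ± 0.365 FPKM in sham libraries and did not pass (adjusted p = 0.11). Cntn1, the contactin partner of Ptprz1 and Tnr, fell by 0.74 on the log2 scale (adjusted p = 5.6e-04).

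Of 6 soluble ligands and matrix components tested, 2 were higher and 2 lower, with a median change of −0.02. Fn1, or fibronectin, a partner of tenascin-C in wound matrix, averaged 248 ± 89.4 FPKM in SCI and 12.1 ± 2.35 FPKM in sham libraries (log2 change 4.21, limma adjusted p = 2.7e-05). Crtac1, an antagonist of the Nogo receptor, averaged 26.5 ± 7.11 FPKM in SCI and 64 ± 4.45 FPKM in sham libraries (log2 change −1.27, adjusted p = 0.0014). Ptn, or pleiotrophin, a ligand of Ptprz1, fell by 0.57 on the log2 scale (adjusted p = 0.024). That call ended without sham 1 (adjusted p = 0.051), without sham 3 (adjusted p = 0.078) or with no filter (adjusted p = 0.058). The related ligand Mdk had a change of 0.15 that did not pass (adjusted p = 0.33). Of 6 other link protein, tenascin and proteoglycan genes tested, 3 were higher and none was lower (2 and 0 without SCI 2), with a median change of 0.51. Bgn, or biglycan, had a change of 2.94 (adjusted p = 1.6e-04) and Dcn, or decorin, one of 1.41 (adjusted p = 0.047). The call on Dcn ended without SCI 1, SCI 2, sham 2 or sham 3, and its change was 0.91 without SCI 2 and 0.96 without sham 2. The Dcn call also ended with no filter (limma adjusted p = 0.11), no trend (0.058) or a replicate block (0.091). Rescaling without mitochondrial and haemoglobin genes ended it too (limma adjusted p = 0.052). Cspg4, the NG2 proteoglycan of glial precursors and pericytes, rose by 0.77 on the log2 scale, and Dcn and Fn1 also stand in the fibroblast list used here.

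All 7 genes of neurons that carry nets were lower, with a median change of −1.45. Slc5a7, the choline transporter, averaged 6.03 ± 1.94 FPKM in SCI and 42.4 ± 5.26 FPKM in sham libraries (log2 change −2.65, limma adjusted p = 6.3e-05). Chat, the acetylcholine enzyme of motor neurons, averaged 2.08 ± 0.699 FPKM in SCI and 13.3 ± 1.27 FPKM in sham libraries (log2 change −2.23, adjusted p = 7.2e-05). Pvalb, the parvalbumin of fast-spiking interneurons, averaged 96.3 ± 22 FPKM in SCI and 186 ± 15.1 FPKM in sham libraries (log2 change −0.96, adjusted p = 0.0023). Kcnc1, a potassium channel of fast-firing neurons, had a change of −1.45.

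The falls of Hapln4, Hapln1, Bcan and Acan came with lower neuronal transcripts throughout. Of 10 neuron markers 9 were lower and none higher, and their summed level was 1914, 1381 and 2424 FPKM in SCI libraries, against 4650, 5497 and 4697 in sham libraries. Set against that sum in the same library, a measure chosen after the values were seen, Hapln4 was 1.57%, 1.43% and 1.56% in SCI libraries, against 2.17%, 2.03% and 2.15% in sham libraries. It thus lay lower in every SCI library by this measure as well, though the difference was smaller, at −0.48 on the log2 scale. Hapln1 was 0.105%, 0.0985% and 0.128% of the neuron sum in SCI libraries, against 0.134%, 0.135% and 0.168% in sham libraries. Bcan was 2.16%, 3.15% and 2.3% in SCI libraries, against 3.15%, 2.71% and 3.18% in sham libraries, and these libraries overlapped. Acan was 0.191%, 0.343% and 0.209% in SCI libraries, against 0.147%, 0.147% and 0.165% in sham libraries, and was thus higher in SCI by this measure. The neurofilament genes Nefl, Nefm and Nefh, the largest neuron markers in sham libraries, fell the most of that list. They averaged 1568, 961 and 848 FPKM in sham and 527, 316 and 218 FPKM in SCI libraries. The values against the neuron sum, those of Acan, Bcan and Hapln4 among them, thus carry this fall. How the genes stand against the neuron markers without neurofilaments was not tested. Set against the astrocyte sum instead, Acan was 0.0955% to 0.125% in SCI and 0.285% to 0.36% in sham libraries, and Bcan was 1.08% to 1.38% in SCI and 6.13% to 6.64% in sham libraries. Both were thus lower in SCI on that scale, as were Hapln1 and Hapln4, with log2 differences of −2.55 and −2.64. Ptprz1 also turned, at 0.809% to 0.883% of the astrocyte sum in SCI and 0.978% to 1.07% in sham libraries. Ncan, Vcan and Tnc were higher in SCI on that scale too (log2 differences 0.37, 1.15 and 4.99). Most of the astrocyte sum in SCI was Gfap, at 2781 ± 63 FPKM against 641 ± 116 in sham libraries, whereas 4 of its 8 markers fell. Aldoc, the largest of the 8 in sham libraries, averaged 1094 ± 134 FPKM there and 549 ± 72.2 in SCI. The log2 differences against this sum, that of Ptprz1 (−0.29) among them, thus carry the rise of Gfap. How the genes stand against the astrocyte markers without Gfap was not tested. Hapln2 and Tnr were higher in SCI against the neuron sum (log2 differences 1.31 and 1.34) and lower against the astrocyte sum (−0.85 and −0.81). Their groups did not overlap on either scale. The direction of Acan, Ptprz1, Hapln2 and Tnr thus differs between these sums, each of which is weighted to its most abundant markers.

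The 6 caudal cord Hox genes tested, which mark position along the cord, had 5 members lower. Their summed level was 42.3, 33.7 and 81 FPKM in SCI libraries, against 218, 154 and 175 in sham libraries. SCI 2 was the lowest and SCI 3 the highest of the injured libraries for this sum, for the neuron sum, for Hapln4 and for Hapln1. Bcan and Acan were also highest in SCI 3, but were lowest in SCI 1. SCI 3 was also the highest for the sensory ganglion sum, at 80, 54.2 and 224 FPKM in SCI libraries, against 164, 189 and 158 in sham libraries. The part of cord position and of ganglion tissue in these falls was not tested.

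The rises of Ncan, Vcan, Tnc and Ptprz1 came with changes in the markers of several glial and connective tissue cells. Of 8 astrocyte markers 4 were higher and 4 lower, and their summed level was 3831 to 4040 FPKM in SCI and 2239 to 2440 FPKM in sham libraries, of which Gfap made up 2781 ± 63 in SCI and 641 ± 116 in sham libraries. Of 8 oligodendrocyte precursor markers 3 were higher and 1 lower (2 and 2 without SCI 3), with a median change of −0.09. Their sum was 173 to 222 FPKM in SCI and 195 to 210 FPKM in sham libraries, which overlap. Pdgfra, a receptor of these cells, rose the most of this list, by 1.34 on the log2 scale. Of 8 fibroblast and meningeal markers 7 were higher, at a sum of 527, 976 and 539 FPKM in SCI libraries, against 136, 64.8 and 130 in sham libraries. All 8 microglia and macrophage markers were higher, at a sum of 1939 to 2919 FPKM in SCI and 229 to 286 FPKM in sham libraries. SCI 2 had the highest fibroblast and macrophage sums and the highest Tnc, Vcan and Ncan, whereas Ptprz1 was highest in SCI 3. No list had a marker at 0 in all libraries, and the part of these cells in the rises was not tested.

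The genes whose pattern over the 6 libraries lay nearest to Tnc were Clec4d, Apoc2 and Ms4a6d, by Euclidean distance of log2(FPKM + 1) from the sham mean (0.259, 0.296 and 0.537). All 3 were highest in SCI 2, and Apoc2 was listed at 0 in every sham library. Among the nearest to Hapln4 were Chrm2 (0.135) and Scn4b (0.211). Chrm2, a muscarinic receptor, stood at 8.02, 4.96 and 9.33 FPKM in SCI libraries, against 29.14, 30.72 and 28.96 in sham libraries.

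The injured libraries differed among themselves in many of the 10 genes. Tnc, Vcan and Ncan were highest in SCI 2 and lowest in SCI 3. Hapln1, Hapln4, Hapln2 and Tnr were lowest in SCI 2, and of these Hapln2 was highest in SCI 1 and the others in SCI 3. Acan, Bcan and Ptprz1 were lowest in SCI 1 and highest in SCI 3, so no single order of the libraries held for all 10 genes. The widest spread was that of Hapln1, at 2.29-fold between its highest and lowest SCI library, and Hapln4 spread 1.92-fold. Without SCI 2 the same 8 genes were past the threshold, with log2 changes of 4.71 for Tnc, 1.55 for Vcan, 1.02 for Ncan and 0.46 for Ptprz1. The falls without SCI 2 were −1.60 for Hapln4, −1.60 for Bcan, −1.21 for Hapln1 and −0.68 for Acan. The log2 ratios of neighbours then differed by 2.62 for Ncan to Hapln4, 2.76 for Vcan to Hapln1, −1.73 for Bcan to Hapln2 and −0.82 for Acan to Hapln3. Without SCI 3 the same 8 genes passed as well, with log2 changes of 5.18 for Tnc, 1.79 for Vcan, 1.10 for Ncan and 0.39 for Ptprz1, and of −2.06 for Hapln4, −1.78 for Bcan, −1.61 for Hapln1 and −0.72 for Acan.

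**Figure D5:**
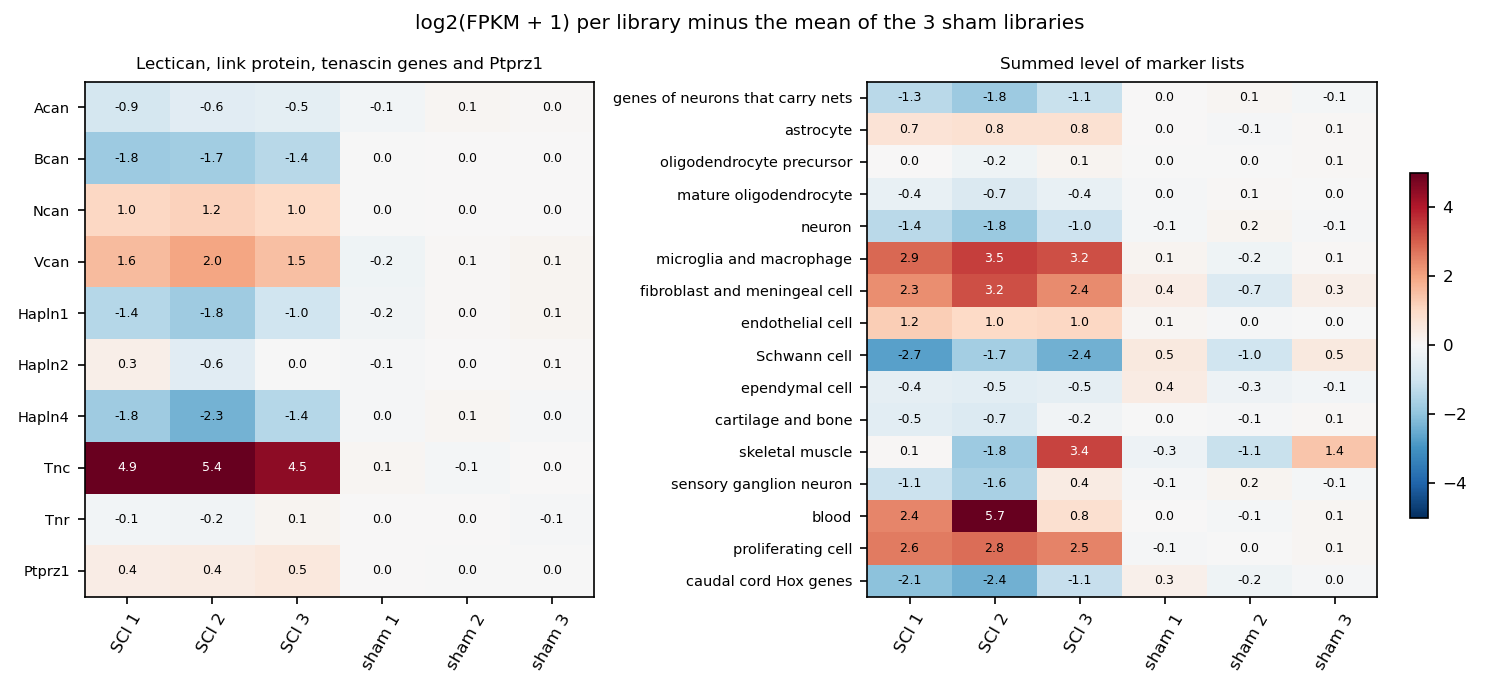
log2(FPKM + 1) of each gene (left) and of the summed FPKM of each marker list (right) in each library, minus the mean of the 3 sham libraries, in colour and number. SCI 2 has the highest Tnc (98.80 FPKM) and blood sum (45063 FPKM) and the lowest Hapln4 (19.69 FPKM) and neuron sum (1381 FPKM).

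Across whole libraries, FPKM summed to between 716215 and 734791 and from 16774 to 17202 genes reached 1 FPKM. Libraries correlated with Pearson r of 0.971 to 0.985 within SCI and 0.987 within sham, against 0.839 to 0.907 between groups. The libraries labelled SCI were the higher ones in Gfap (2781 ± 63 FPKM in SCI, 641 ± 116 in sham), Aif1 (28.5 ± 3.92 in SCI, 4.86 ± 0.71 in sham) and Timp1 (452 ± 244 in SCI, 2.38 ± 0.356 in sham). The skeletal muscle sum was 47.6, 12.3 and 484 FPKM in SCI libraries, against 37.9, 20.4 and 122 in sham libraries, and the Schwann cell sum was 181 to 363 FPKM in SCI and 602 to 1692 FPKM in sham libraries. Of the markers tested, 6 of 7 endothelial, 3 of 5 blood (5 without SCI 3) and 8 of 8 proliferation genes were higher, and 4 of 6 ependymal, 3 of 7 Schwann cell, 0 of 6 skeletal muscle and 1 of 6 sensory ganglion genes (3 without SCI 3 and 0 without SCI 2) were lower.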

How the data were processed

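Poly(A) RNA of 3 SCI and 3 sham pieces of mouse cord was sequenced as dUTP-marked libraries with unique molecular identifiers, per the labels' protocols. The authors deposited an FPKM value per gene and library. Tools named in the submitters' processing notes, with no roles, are StringTie 1.3.4d, HISAT2 2.0.4, cutadapt 1.9, edgeR, DESeq2 and UMI-tools, and the build named is mm9. However, the coordinates of 32204 of 36502 gene identifiers (88.2%) are those of GENCODE M21 on GRCm38. Neither the strand setting nor the handling of identifiers is given in the sources used here.

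FPKM are shares of a library and hold no counts. No step of whole reads was found: the fullest bin of log2 ratios to sham 1 (width 0.05) held 4.76% to 5.71% of 1856 to 1983 short low genes. The depth is therefore unknown, and no counting interval is given.

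A model with group as its only term was fitted by limma 3.58.1 (R 4.3.3, trended variance) to log2(FPKM + 1) of the 17435 of 36629 genes that reached 1 FPKM in 3 or more libraries. The pseudocount understates the change of low genes. Calls are adjusted p under 0.05 (Benjamini-Hochberg). Shares and ratios were compared by exact two-sided permutation over libraries with scipy 1.17.1 (8 shares and 4 ratios). The fit was also run on simulated data with few changed genes and independent noise. That setting does not cover data in which most genes changed. The 10 genes and all lists were chosen with earlier results of these data known. From each list around the set, the rule named the most abundant gene and the 2 called genes that changed most. Other genes of the lists were named after their values were seen, and some genes are not reported here. Promoter windows come from RefSeq on GRCm38.p6, which matched 9 of the 10 genes. Alternatives were other pseudocounts, filters, scalings, no trend, a replicate block and leaving out each library.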

Additional observations from a re-analysis of the deposited data

How the results depend on the processing

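The 8 calls among the 10 genes held in direction and threshold under all 15 alternatives, with log2 changes of −0.75 to −0.53 for Acan, −1.78 to −1.56 for Bcan, 1.02 to 1.15 for Ncan, 1.55 to 1.87 for Vcan, −1.76 to −1.21 for Hapln1, −2.06 to −1.60 for Hapln4, 4.71 to 5.63 for Tnc and 0.39 to 0.53 for Ptprz1. The genes that did not pass turned in sign: leaving out 1 library at a time gave −0.29 to 0.13 for Hapln2 and −0.16 to 0.01 for Tnr, and median-ratio scaling gave 0.02 for Tnr. The share of Acan, SCI minus sham, was 0.0825 percentage points and ranged from −0.0881 (without SCI replicate 3) to 0.318 when 1 library was left out. The cause of these turns was not tested. Of 35 other genes named and run under the alternatives, 4 changed a call under some alternative (Adamts20, Mmp9, Ptn, Dcn) and none turned in sign. Over all genes, 4653 were higher and 5371 lower as deposited, 5378 and 4842 under median-ratio scaling, and 4381 and 6364 under quantile normalization, which set the median of all genes to 0.004 and −0.133. Same-numbered SCI and sham libraries did not visibly deviate together (r of −0.008, −0.039 and 0.022), and differently numbered ones gave r of −0.035 to 0.038. With 3 libraries per group, and SCI libraries apart in blood and ganglion transcripts, this check cannot tell whether the numbers pair them. A replicate block gave 4398 genes higher and 5045 lower and left the 8 calls in place. With 3 libraries per group and no counts, a change as small as that of Tnr or Hapln2 could not be told from 0.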
